A study of Drosophila melanogaster with 4 samples.

Results

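The regions described here are the stretches of chromosome arm 2L that carried ubiquitinated histone H2B in third-instar larvae of Drosophila melanogaster. They were chosen by position alone: every enriched region of the authors' combined list on 2L whose midpoint lay at or below 21011544 (FlyBase release 5, per the file headers), which leaves out the 2 Mb next to the centromere. The rule gave 902 regions of the 5627 in the combined list, and the same limits gave 802 of 5135 regions in replicate 1 and 794 of 5150 in replicate 2. The last region inside the limit lay at 20980424 to 21020828 with a score of 1.37, and the first outside at 21023422 to 21042238 with a score of 2.11. Beyond the limit, 2L held 46 and 53 further regions in replicates 1 and 2 and 63 in the combined list.

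The larvae were wild type, of the strain Oregon-R-modENCODE, with no treatment named in the labels. Chromatin was immunoprecipitated with NRO3, a mouse monoclonal antibody raised to the site where ubiquitin is joined to human H2B, in 2 samples, called replicates 1 and 2. The 2 samples of input chromatin were not analysed here. Nothing in the labels says that the replicates are from different batches of larvae, and their spread may be technical only. Each value below comes from the list of replicate 1, the list of replicate 2 or the authors' combined list, for which no SD can be given. The lists hold positions and 1 score per region, whose unit is not stated, and no read counts. Read depth is therefore unknown. Whole larvae mix many tissues, and a mark in few cells cannot be told apart from a weak mark in many.

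Ubiquitin is attached to histone H2B by an enzyme pair known from yeast as Rad6 and Bre1, and in Drosophila Bre1 serves the same role. The mark is laid down as RNA polymerase II passes along a gene and is removed by dedicated proteases, among them the deubiquitinating module of the SAGA complex. It is known as a mark of transcribed gene bodies, and it promotes methylation of histone H3 by other enzymes. The lists name no genes, and genes and base sequences under the regions were not analysed here, so the regions are given by position.

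The mark covered 23.3% of the arm on average. Most regions were a few kilobases wide, while the broad minority held about as many bases as all others together. Regions covered 22.8% of 2L in replicate 1 and 23.8% in replicate 2, a mean of 23.3% ± 0.687 (SD, n = 2), and 27.3% (5.73 Mb of 21.0 Mb) in the combined list. Median widths in replicates 1 and 2 were 3.37 and 3.50 kb, a mean of 3.43 kb ± 0.0919 (SD, n = 2). In the combined list it was 3.50 kb, the quartiles were 1.96 and 7.25 kb, and the extremes were 1001 bp and 85.7 kb. Both replicates thus gave nearly the same typical width.

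Regions of at least 10 kb were few but held about as much sequence as all narrower ones. They numbered 110 in replicate 1, 132 in replicate 2 and 156 in the combined list, where they were 17.3% of the regions. They held 46.8% and 51.4% of the covered bases in replicates 1 and 2, a mean of 49.1% ± 3.25 (SD, n = 2), and 53.9% in the combined list. Regions under 5 kb were 64.0% of the combined list and held 25.5% of its bases. At the far end, the 234 combined regions under 2 kb were 25.9% of all regions and held 6.11% of the bases.

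The score climbed with width in every list. Combined regions under 2 kb (234) had a median score of 0.347, which became 0.556 for 343 regions of 2 to 5 kb and 0.930 for the 169 of 5 to 10 kb. It was 1.09 for the 111 regions of 10 to 20 kb and 1.30 for the 45 of 20 kb or more. Both replicates had the same order, with medians of 0.512 in replicate 1 and 0.478 in replicate 2 under 2 kb, and of 1.31 and 1.48 at 20 kb or more. Spearman's rho of width with score was 0.831 across the 902 combined regions, 0.845 over the 802 regions of replicate 1 and 0.839 over the 794 of replicate 2. These describe regions that share a library and a caller, and how the score depends on width by construction is not known.

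The 10 highest scores among regions that overlapped both replicates all lay between 0 and 14 Mb. The region at 161620 to 202832 led. It was 41.2 kb wide and scored 2.16 in replicate 1, 2.16 in replicate 2 and 2.17 in the combined list. The next lay at 12813274 to 12823320, was 10.0 kb wide and scored 2.08 in replicate 1, 2.26 in replicate 2 and 2.14 in the combined list. Both were a single unbroken region in each replicate.

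The third, at 9682444 to 9699826, scored 1.99 in replicate 1, 2.09 in replicate 2 and 2.03 in the combined list. The fourth, at 8053798 to 8072276, scored 1.92, 2.00 and 1.96 in the same order. A pair of neighbours 77.2 kb apart followed, at 5218772 to 5239000 (1.91, 2.06 and 1.93) and 5316242 to 5328680 (1.91, 1.91 and 1.91). In these 6 highest regions, each unbroken, replicate 2 scored higher each time, by 0.00279 to 0.187.

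The other 4 were called in pieces in replicate 1 or differed more in score. Replicate 1 split the region at 13023018 to 13060582 into 2 pieces scoring 1.98 and 0.517, where replicate 2 had 1 region at 1.89. It likewise split the region at 695104 to 715346 into 2 pieces scoring 1.95 and 1.20, against 1 region at 1.96 in replicate 2. The region at 9176112 to 9219080 was 3 pieces in replicate 1, scoring from 0.448 to 1.88, and 1 region at 2.01 in replicate 2. The tenth, at 4031002 to 4066958, was whole in both, with 1.62 in replicate 1 and 1.98 in replicate 2, the widest gap in score among the 10. Either replicate covered at least 92.2% of the bases of each of the 10.

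The widest regions were mostly other places, and 2 of the 10, from 161620 and from 9176112, were also among the highest scores. The widest lay at 7891952 to 7977656, 85.7 kb with a score of 1.79 in both replicates and 1.78 in the combined list, and was unbroken in each. The next, at 18319640 to 18387590, spanned 68.0 kb and scored 1.44 in replicate 1 and 1.76 in replicate 2. The third, at 13564304 to 13631684, spanned 67.4 kb and fell into 3 pieces in replicate 1 but 5 pieces in replicate 2. No region of 2L was broken into more pieces over both replicates together.

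The fourth, at 1884394 to 1943714, spanned 59.3 kb with a combined score of 1.58. The fifth and sixth, at 19586742 to 19645466 and 11014060 to 11067288, had widths of 58.7 and 53.2 kb and combined scores of 1.07 and 1.15. They fell into 2 and 1 regions in replicate 1 and into 3 each in replicate 2. Of the rest, 4068138 to 4114464 (46.3 kb) begins 1.18 kb past the region ranked 10 by score, and the last lies across the limit (20980424 to 21020828, 40.4 kb). In the combined list the scores of the 10 widest ran from 1.07 to 2.17 and their ranks by score from 1 to 159 of 902. In each of the 10 the highest score within the region was greater in replicate 2 than in replicate 1.

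**Figure D1:**
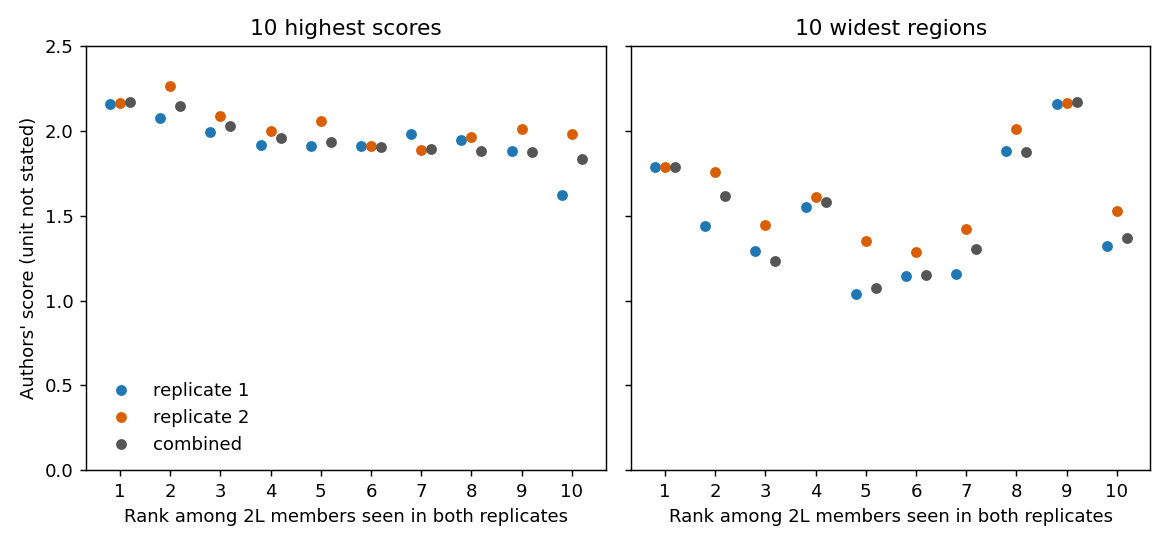
Authors' score (y axis, unit not stated) of the 10 highest-scoring and the 10 widest 2L regions seen in both replicates, by rank (x axis). Points stand for replicate 1, replicate 2 and the combined list, with the highest piece shown where a replicate split the region, and the widest regions reach scores between 1.07 and 2.17 in the combined list.

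The score ordered the regions of 2L alike in both replicates, but its range was wider in replicate 2. Each other's largest overlap defined 671 pairs, whose median score was 0.808 in replicate 1 and 0.809 in replicate 2. Spearman's rho over them was 0.926 and Pearson's r 0.949, as descriptions across regions of the same 2 libraries. In the quartile of pairs with the highest mean score, 133 of 168 scored higher in replicate 2, with medians of 1.39 in replicate 2 and 1.29 in replicate 1. In the lowest quartile 60 of 168 did, with medians of 0.535 in replicate 2 and 0.552 in replicate 1. High regions therefore stood higher, and low regions slightly lower, in replicate 2.

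The pairs that differed most in score all stood higher in replicate 2. At 16526866 to 16533197 replicate 2 scored 1.29, against 0.801 in replicate 1. At 4283045 to 4299313 the scores were 1.56 in replicate 2 and 1.15 in replicate 1, and at 8825374 to 8829887 they were 1.14 and 0.743. These 3 differences ran from 0.398 to 0.487, while the SD of the difference over all 671 pairs was 0.125.

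**Figure D2:**
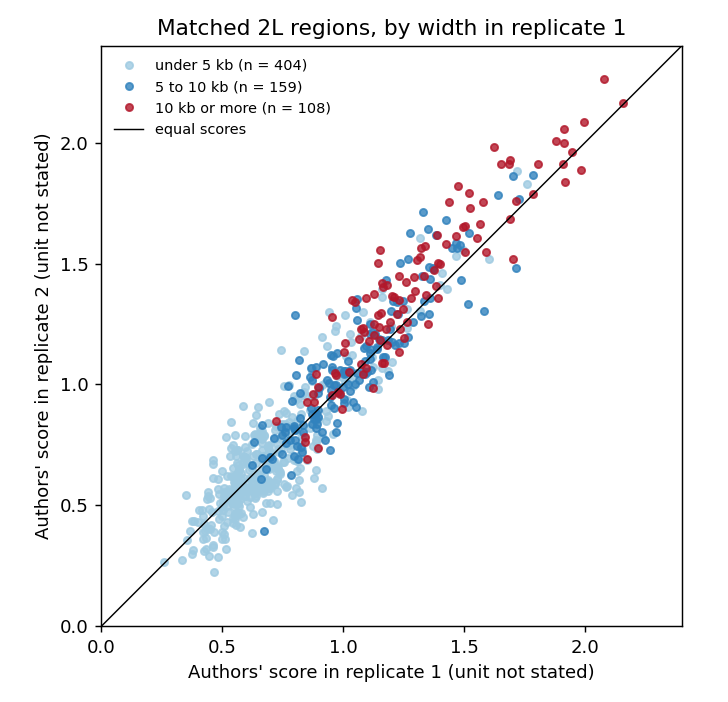
Authors' score of 671 matched 2L regions in replicate 1 (x axis) and replicate 2 (y axis), units not stated, with 1 point per pair coloured by width in replicate 1. The line marks equal scores, and the high-scoring pairs lie mostly above it.

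The median shift of the borders of matched regions was similar up to 20 kb of width and larger above it. Large shifts were not alike below 20 kb. A border moved by over 2 kb in 1% of pairs under 2 kb and 9.21% of 2 to 5 kb. Matched regions had to overlap, so 2 regions under 2 kb cannot differ by over 2 kb at a border. The matching rule thus keeps this share low for narrow regions. The share was 23.3% for 5 to 10 kb, 19.7% for 10 to 20 kb and 37.5% for 20 kb or more. The start differed between the replicates by a median of 142 bp and the end by 143 bp. Both borders lay within 200 bp in 247 of 671 pairs (36.8%). That share was 41.0% for regions under 2 kb, 39.1% for 2 to 5 kb, 36.5% for 5 to 10 kb, 32.9% for 10 to 20 kb and 12.5% for the 32 pairs of 20 kb or more. Median start shifts ran from 127 to 166 bp in the 4 classes under 20 kb and reached 201 bp in the widest class. Median end shifts ran from 117 to 171 bp under 20 kb and reached 317 bp in the widest.

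Of the 902 combined regions, 106 were 2 or more regions in replicate 1 and 71 in replicate 2. Among the 156 of at least 10 kb, 63 (40.4%) were divided in replicate 1 and 41 (26.3%) in replicate 2. Among the 746 narrower ones, 43 (5.76%) were divided in replicate 1 and 30 (4.02%) in replicate 2. Broad regions were thus divided at a higher rate in both, but they also have more room to hold 2 replicate regions. The narrowest replicate region on 2L was 1302 bp wide. The narrower regions include the 148 that overlapped no replicate region and so could not be divided. The rates therefore do not show a property of broad regions apart from width. Replicate 1 had more regions in pieces over the arm, and it alone divided any of the 10 highest scores. The 10 widest did not follow this, with 3 divided in each replicate and 11014060 to 11067288 whole in replicate 1 but in 3 pieces in replicate 2. Whether depth differed between the libraries is unknown, and its part in the division was not tested.

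Most places on 2L were found by both replicates. The bases covered in both were 85.7% of those covered in either (4.52 of 5.27 Mb). Of the regions of replicate 1, 748 of 802 (93.3%) shared at least 1 bp with replicate 2, against 93.2% over the whole list. Of the regions of replicate 2, 706 of 794 (88.9%) overlapped replicate 1, against 88.2% over the whole list. These shares were near those of the whole lists and are not particular to 2L.

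The regions seen once were narrow, and their scores were low beside those of partnered regions. In replicate 1 the 54 regions that met none of replicate 2 were 1.65 kb wide at the median and 3.48 kb at most, while the others had a median of 3.64 kb. In replicate 2 the 88 such regions were 1.69 kb wide at the median and 4.51 kb at most, and the others 3.95 kb at the median. Their median scores were 0.537 in replicate 1 and 0.547 in replicate 2, against 0.778 and 0.792 for partnered regions. All regions under 2 kb, with or without a partner, had medians of 0.512 in replicate 1 and 0.478 in replicate 2. The lower scores of regions seen once were therefore not shown apart from their width. All regions of 5 kb or more in either replicate overlapped the other, and a wide region meets a 1 bp rule more readily.

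Both replicates marked 631 of the 902 combined regions (70.0%) at 1 bp or more, and the share over the whole combined list was 70.0%. These 631 had a median width of 5.15 kb, a median score of 0.747, and held 91.4% of the bases. Only replicate 1 was met by 44 and only replicate 2 by 79. The matching counts over the whole combined list were not computed, so it is not known whether this imbalance is particular to 2L. The remaining 148 (16.4%, against 16.1% over the whole list) overlapped neither, with a median width of 1.37 kb, a median score of 0.358 and 3.71% of the bases. The shares in both replicates and in neither were at the level of the whole list. Of the 148, 61 were narrower than the narrowest region of either replicate on 2L (1302 bp).

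**Figure D3:**
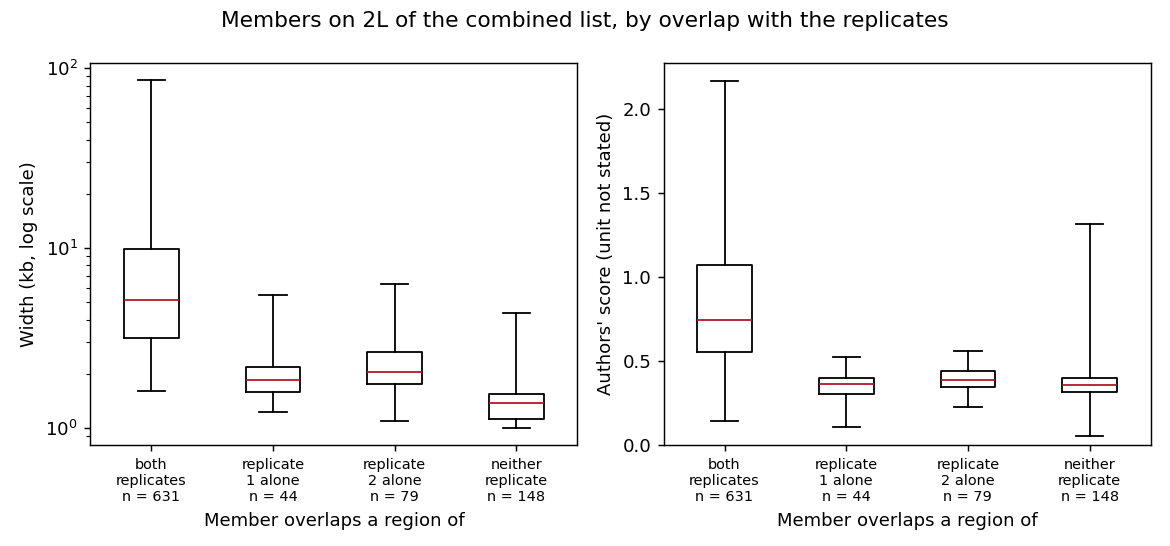
Width (left, kb on a log scale) and authors' score (right, unit not stated) of the 902 combined 2L regions, grouped by which replicate lists they overlap. Boxes span the middle 50%, red lines are medians and whiskers reach the extremes; the 631 regions in both replicates have a median width of 5.15 kb and the 148 in neither 1.37 kb.

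The mark was unevenly spread along the arm, and both replicates traced the same course. In 21 windows of 1 Mb, counted from the telomere end, combined coverage averaged 27.3% ± 8.72 (SD over windows). Coverage peaked from 8 to 9 Mb, where replicates 1 and 2 had 35.3% and 36.4% and the combined list 42.7%. The first megabase followed at 40.0% (34.6% and 35.0% in replicates 1 and 2), and 13 to 14 Mb was at 36.2% (31.9% and 33.3%). Both replicates had these same 3 windows as their most covered.

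The 3 least covered windows all lay between 14 and 18 Mb. From 15 to 16 Mb coverage was 6.90% (4.91% and 5.49% in replicates 1 and 2). From 17 to 18 Mb it was at 11.1% (8.29% and 8.68%), and that from 14 to 15 Mb at 15.6% (13.2% and 13.9%). Between them, 16 to 17 Mb was at 24.4% (19.0% and 22.0%), so the low stretch was not continuous.

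Taken as one stretch, a choice made after the values were seen, 14 to 18 Mb was covered at 11.9% ± 0.819 in the replicates. The arm from 0 to 14 Mb was covered at 26.2% ± 0.654 and the arm from 18 Mb to the limit at 24.8% ± 0.662 (SD, n = 2 each). In the combined list, 14 to 18 Mb held 24.0 regions per Mb, against 48.4 before it and 42.5 after it. Its regions were similar in kind, with a median width of 3.38 kb and a median score of 0.562, against 3.56 kb and 0.587 from 0 to 14 Mb. The stretch thus held fewer regions per Mb, while their median width and score were close to those of the arm before it.

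The number of regions, more than their median width, followed the coverage of a window. Across the 21 windows of the combined list, Pearson's r of coverage was 0.780 with the number of regions, 0.488 with their median score and 0.0602 with their median width. A median says little of the broad regions, which held 53.9% of the combined bases. From 0 to 1 Mb 54 regions covered 40.0%, while from 10 to 11 Mb 73 regions covered 28.1%. Window counts ran from 15 regions at 14 to 15 Mb to 74 at 8 to 9 Mb. Coverage is made up of these regions, so the values describe its parts. Between the replicates the r of coverage was 0.995, and coverage was higher in replicate 2 in 20 of the 21, by a mean of 0.972 points ± 0.787 (SD over windows). The exception was 12 to 13 Mb, at 16.1% in replicate 2 and 16.2% in replicate 1.

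**Figure D4:**
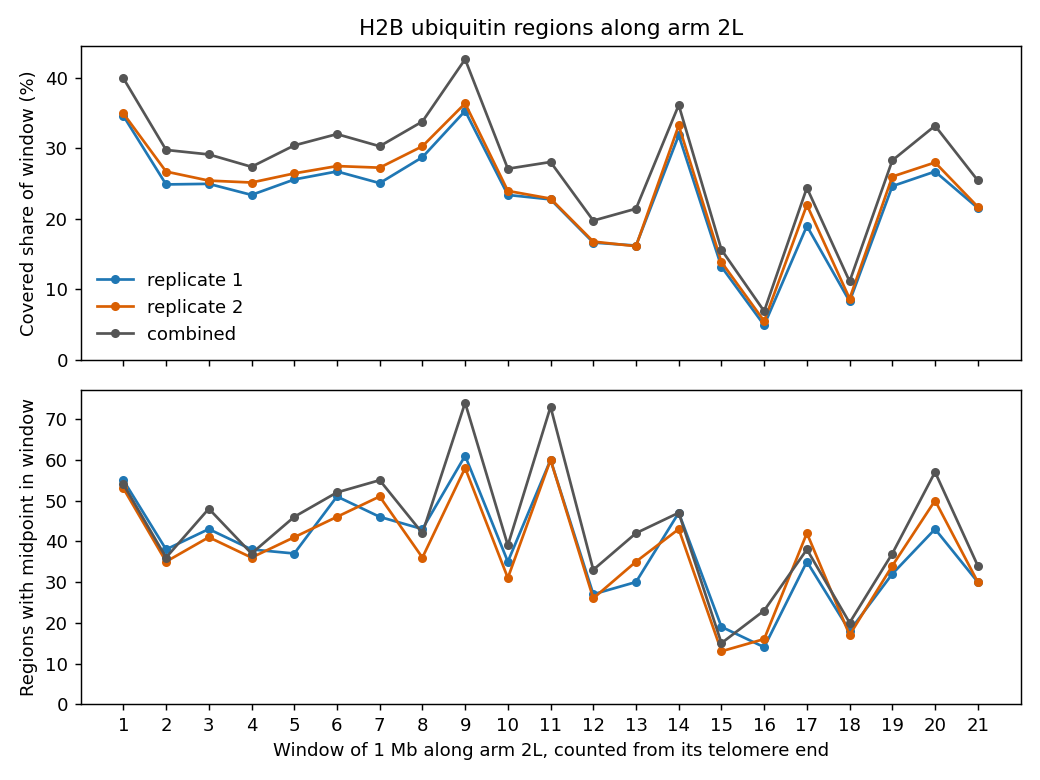
Covered share (top, %) and number of regions (bottom) in each of 21 windows of 1 Mb along 2L, counted from the telomere end (x axis), for replicate 1, replicate 2 and the combined list. In covered share, all 3 lines have the same high windows 1, 9 and 14 and the same low windows 15, 16 and 18.

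Distances between neighbouring regions varied widely, and the longest was 478 kb. In the combined list the median distance between neighbouring regions was 2.73 kb, and 176 neighbours stood less than 500 bp apart. In replicates 1 and 2 the median distance was 3.65 and 3.98 kb, a mean of 3.82 kb ± 0.237 (SD, n = 2). Joining regions less than 5 kb apart gave 347 and 356 neighbourhoods in replicates 1 and 2 and 348 in the combined list. Single regions made up 156 and 169 of these in replicates 1 and 2 and 138 in the combined list, where 54 held 5 or more regions and the fullest held 14.

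The longest neighbourhood spanned 107 kb at 13533958 to 13641380 and held the region that was broken into most pieces. It was covered at 80.5% in replicate 1, 84.4% in replicate 2 and 90.6% in the combined list. Others lay at 7473288 to 7574094 (101 kb), 2855470 to 2952942 (97.5 kb), 155570 to 251530 (96.0 kb) and 12455076 to 12546792 (91.7 kb). The one from 155570 holds the highest score of 2L.

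Stretches of at least 50 kb without a called region, which need not lack the mark, took up more of the arm than the called regions did. There were 89 in replicate 1 and 90 in replicate 2, and they held 51.5% of 2L ± 0.502 (SD, n = 2). The combined list had 86 of them, with 47.8% of the arm. The 40 of at least 100 kb alone held 33.1%. By contrast, the 554 gaps under 5 kb in the combined list held 3.78% of the arm.

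The 5 longest gaps of the combined list held no region of either replicate. They were 478 kb at 15768173 to 16246095, 454 kb at 16917025 to 17370653, 316 kb at 14689617 to 15005655, 281 kb at 13904859 to 14185541 and 269 kb at 11526687 to 11795511. The first 3 lay wholly between 14 and 18 Mb and the fourth partly. Every region of either replicate overlapped a combined region, so none could lie wholly inside a gap of the combined list. The lack of replicate regions in these gaps is therefore no separate check of them. Between 14 and 18 Mb, gaps of at least 50 kb took up 76.6% of the sequence in the combined list, against 40.9% from 0 to 14 Mb. Sequence to which reads cannot be assigned was not measured and its part in the gaps was not tested.

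Set beside 3L, 3R and X under the same limits, 2L was the least covered of these arms in both replicates. Arm 2R was not among the arms compared, so the place of 2L among all arms is not given. With SD over 2 replicates, covered shares averaged 23.3% ± 0.687 for 2L, 26.5% ± 0.867 for 3L, 25.2% ± 0.646 for 3R and 27.0% ± 1.02 for X. The difference, 2L minus the other arm, was -3.27 percentage points ± 0.180 for 3L, -1.90 ± 0.0413 for 3R and -3.68 ± 0.330 for X (SD over 2 replicates). Each difference was larger than its spread between replicates, which may be technical only, and all had the same sign in 2 of 2 replicates. That spread does not cover the choice of limits. With the whole arm, 2L minus 3R was -3.10 points. The exact two-sided sign-flip permutation test gave p = 0.5 for each, and 0.5 after Benjamini-Hochberg adjustment over 6 comparisons, the smallest that 2 replicates allow, so the design cannot reach 0.05.

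In the replicates 2L also had the largest share of its sequence in long gaps and the fewest regions per Mb of the 4 arms compared. Gaps of at least 50 kb held 51.5% of 2L ± 0.502, against 43.8% ± 1.29 of 3L, 49.7% ± 0.757 of 3R and 46.9% ± 1.43 of X (SD, n = 2 each). The differences, 2L minus the other arm, were 7.75 points ± 0.791, 1.79 ± 0.256 and 4.60 ± 0.926, positive in 2 of 2 replicates and each with an exact permutation p of 0.5. Regions per Mb in the replicates numbered 38.0 ± 0.269 on 2L, 41.9 ± 0.533 on 3L, 40.3 ± 0.491 on 3R and 47.1 ± 1.11 on X. The gap differences for 3R and X, and the covered share for 3R, changed by over 1.5 times under other settings without changing sign. In the combined list 2L and 3R were level, at 42.9 and 42.5 per Mb. The median width was 3.43 kb ± 0.0919 on 2L, 3.55 kb ± 0.0870 on 3L, 3.58 kb ± 0.0552 on 3R and 3.44 kb ± 0.0431 on X, and these differences were not tested.

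**Figure D5:**
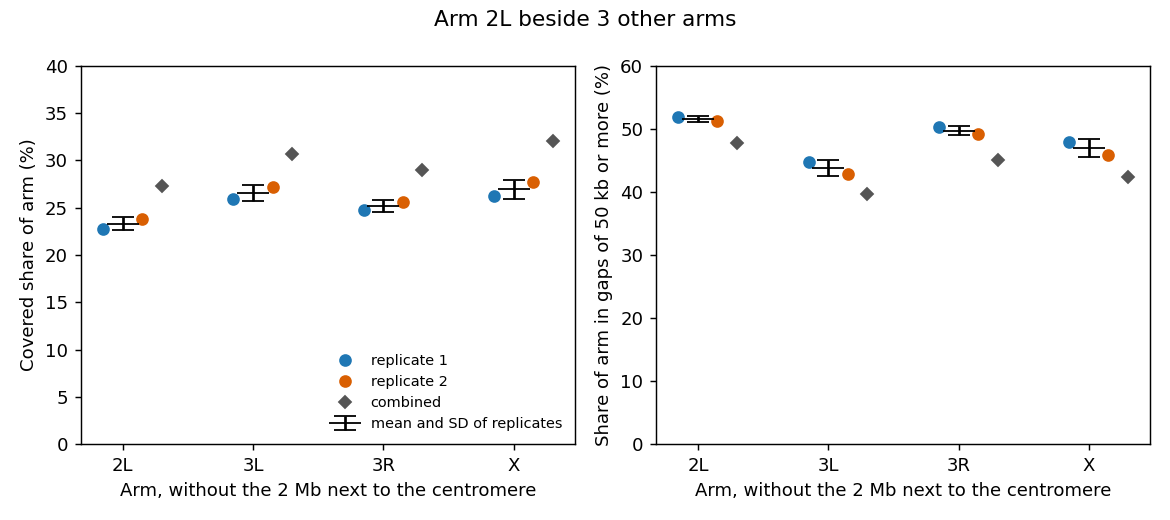
Covered share (left, %) and share in gaps of at least 50 kb (right, %) of 2L, 3L, 3R and X without the 2 Mb next to the centromere. Dots are replicates 1 and 2, bars their mean and SD (n = 2) and diamonds the combined list. Of the arms shown, 2L is the lowest on the left and the highest on the right.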

How the data were processed

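Bowtie 0.12.7 was the aligner, per the submitters' processing notes. Per the file headers, coordinates are on FlyBase release 5. Not given in the sources used here are the region caller, its thresholds, the use of the inputs and the way the replicates were combined. The deposited files list enriched regions with a position and a score as the authors gave it, of unstated unit. The scores were used to describe, rank and filter regions within a list and to compare matched regions.

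Samples were grouped by their titles. Regions were filtered by midpoint, covered bases were counted once, and bases past the limit were left out. Overlap needed at least 1 bp, and regions were matched where each was the other's largest overlap. Python 3.11.15, numpy 2.4.6, scipy 1.17.1 and matplotlib 3.10.9 were used, and the interval functions were tested on simulated data. No table gives counts, so no count model applies. Arms were compared with the replicate as the unit, since regions and windows of 1 library are not replicates. The regions named were the 10 highest scores and the 10 widest that overlap both replicates, the 3 most and 3 least covered windows, the 5 longest gaps, the 3 highest scores found in neither replicate, the 3 largest score differences and the regions on either side of the limit. The longest neighbourhoods, the most divided region and the window that went the other way were singled out after their values were seen. The regions and lists were chosen with earlier results of these data known. Alternatives were a stricter score, merging, the whole arm, a reciprocal overlap, smaller windows and each replicate alone.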

Additional observations from a re-analysis of the deposited data

How the results depend on the processing

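Of 64 recomputed values 0 reversed and 21 moved, judged by sign alone for differences between arms, by a factor of 1.5 for the number of regions and by the spread or counting interval for the rest. The differences between 2L and 3L, 3R or X kept their sign under every alternative run, but not their size. With the whole arm, covered share was -3.10 points for 2L minus 3R (-1.90 without the centromere end), and long gaps were 4.13 points for 2L minus 3R (1.79) and 2.68 for 2L minus X (4.60). With the top 50% of scores, long gaps were 3.35 points for 2L minus 3R and 10.2 for 2L minus X. Without replicate 1 or 2, covered share ran from 22.8% to 23.8%. Keeping the top 50% of scores left 436 regions, with a median width of 6.73 kb, a covered share of 17.9%, 62.3% of bases in regions of at least 10 kb, 65.8% of the arm in long gaps, a Jaccard index (bases in both replicates over bases in either) of 82.0%, 73.4% of regions in both replicates, a score rho of 0.887 and a window r of 0.968. Fewer regions remain there by construction. Merging regions under 500 bp apart gave a median width of 4.08 kb, 55.4% of bases in regions of at least 10 kb, a Jaccard index of 85.9% and 74.1% of regions in both replicates. With the whole arm, covered share was 22.2%, the share in long gaps 52.9%, the Jaccard index 85.8% and the window r 0.996. A reciprocal overlap of 50% left 61.2% of regions in both replicates and a rho of 0.935 over 633 pairs. In windows of 250 kb, r was 0.993. Leaving out combined regions narrower than any replicate region, an alternative added after the data were seen, as were those for the long-gap differences, left 836 regions with 75.5% in both replicates. No paired analysis was possible because the lists used cover 1 group, so no groups could be paired; arms were compared within each replicate. For the other values that moved the cause was not tested. Unknown read depth limits every list.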

Other observations

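The combined list held every base of 2L that both replicates covered (0 kb missing) and all 802 and 794 replicate regions were touched by it, while 18.7 kb covered in 1 replicate lay outside it. It added 0.487 Mb (8.50% of its bases) that neither replicate covered. Of these, 0.274 Mb (56.3%) widened or joined regions that overlap a replicate, and 0.213 Mb lay in the 148 regions that overlap neither. For those 148 the median distance to the next combined region was 1181 bp, against 971 bp over all 902. A neighbour stood less than 1 kb away for 69 of the 148 (46.6%), against 457 of all 902 (50.7%), and 4 of the 148 stood over 20 kb from any.

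Among the 91 combined regions that scored 1.27 or more, the top 10%, 90 overlapped both replicates and 71 were a single region in each. The exception, at 5176378 to 5177388, was 1.01 kb wide and scored 1.32, although it overlapped neither replicate and its nearest region was 10.4 kb away in replicate 1 and 10.2 kb away in replicate 2. The next highest regions found in neither replicate scored 0.736 (1570456 to 1571518) and 0.517 (12743176 to 12744482). Every one of the 21 windows held at least 1 of the 91 high-scoring regions, and the first megabase, with 8, held the most.

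Where a combined region was a single region in both replicates (499 regions), its score lay below both replicate scores in 294, between them in 204 and above both in 1. Median scores of these regions were 0.801 and 0.792 in replicates 1 and 2 and 0.720 in the combined list. All 5627 regions of the whole combined list began at an even position, the 902 on 2L among them, against 395 of 802 regions on 2L in replicate 1 and 407 of 794 in replicate 2.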
